A study of Triticum aestivum with 15 samples.

Results

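The caleosin copies on the group 2 chromosomes of bread wheat are 3 loci of the merged transcript catalogue, XLOC_020626 on chromosome 2A, XLOC_027421 on 2B and XLOC_034129 on 2D. They were chosen by locus number from the 122017 loci of the catalogue, and all 3 passed the filter on low values that left 49090 loci for testing. The study set 2 winter wheat cultivars, TAM112 and TAM111, against each other in water-deficient and well-watered soil, and measured RNA of the flag leaf. The name caleosin comes from the study's own product annotation, since the deposited files hold locus numbers and reference gene names only. The study listed all 3 loci as higher under dry conditions on these same samples, so the dry–wet tests given here are not independent evidence of that direction.

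Flag leaves were taken from greenhouse plants at grain filling (GF, 100 days after transplanting) and at heading (HD, 79 days), with leaves of 4 plants pooled into each sample. Soil water was held near 50% gravimetric water content in the dry treatment and at 90% in the wet treatment. The 15 RNA-seq libraries fell into 8 groups: TAM112 GF dry, TAM112 GF wet, TAM111 GF dry, TAM111 GF wet, TAM112 HD dry, TAM112 HD wet, TAM111 HD dry and TAM111 HD wet. The last group had 1 library and every other group had 2.

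Caleosins are calcium-binding proteins of lipid droplets, the oil bodies of plant cells. They carry a single EF-hand that binds calcium and a hydrophobic stretch that anchors them in the droplet surface, and several of them bind heme and act as peroxygenases, which pass oxygen from a fatty acid hydroperoxide to another lipid. In Arabidopsis, some family members serve seed oil bodies, whereas the leaf member RD20 (also called CLO3) is a well-known gene of the response to drought, salt and abscisic acid (ABA). Bread wheat is hexaploid, so a gene usually has homoeologous copies, 1 in each of the subgenomes A, B and D.

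The 3 loci differed in how many genes they held. The 2A locus (IWGSC RefSeq v1.0, chr2A_part2:148938938-148941180, minus strand) held the single reference gene TraesCS2A01G367700, with 6 exons. The 2B locus (chr2B_part2:95292725-95693506, minus strand) chained 3 units over 400782 bp. Its outer units were TraesCS2B01G384600 and TraesCS2B01G385200, and between them lay an assembled 6-exon copy at 95442014 to 95444323 with no reference gene. The 2D locus (chr2D_part2:7839261-7923318, minus strand) joined TraesCS2D01G364600 and TraesCS2D01G364800, which lie 78846 bp apart. In 2B and 2D, assembled transcripts spliced from 1 unit into the next tied these genes into a single locus.

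The exon lengths showed a shared structure. The loci were chosen under a common product name, so this likeness is not independent of the choice. Counted from the lower coordinate, exons 2 to 4 of the reference genes were 126, 95 and 86 bp long in all 5 of them, in TraesCS2B01G385200 in its second isoform. The fifth exon was 156 bp in TraesCS2A01G367700, TraesCS2B01G385200, TraesCS2D01G364600 and the unannotated 2B copy, and 153 bp in TraesCS2B01G384600 and TraesCS2D01G364800. Across the catalogue, 13 reference transcripts at 11 loci had such a 6-exon run, and all 13 were on group 2 chromosomes. The other 8 loci were at or near 0, and only 1 of them was tested. TraesCS2D01G364500 (XLOC_034128), next to the 2D locus, was listed at 9.97 and 0.918 FPKM in TAM112 GF dry libraries, and its other 13 libraries lay between 0 and 1.73 FPKM. Its average dry–wet change was 0.75 on the log2 scale and did not pass the test (limma, adjusted p = 0.21). These 8 loci were found after the values of the 3 copies were known, and the files do not name them caleosins. Copies this alike can share reads, and how the authors' pipeline split shared reads between them was not tested, so each copy's level is uncertain to that extent.

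**Figure D1:**
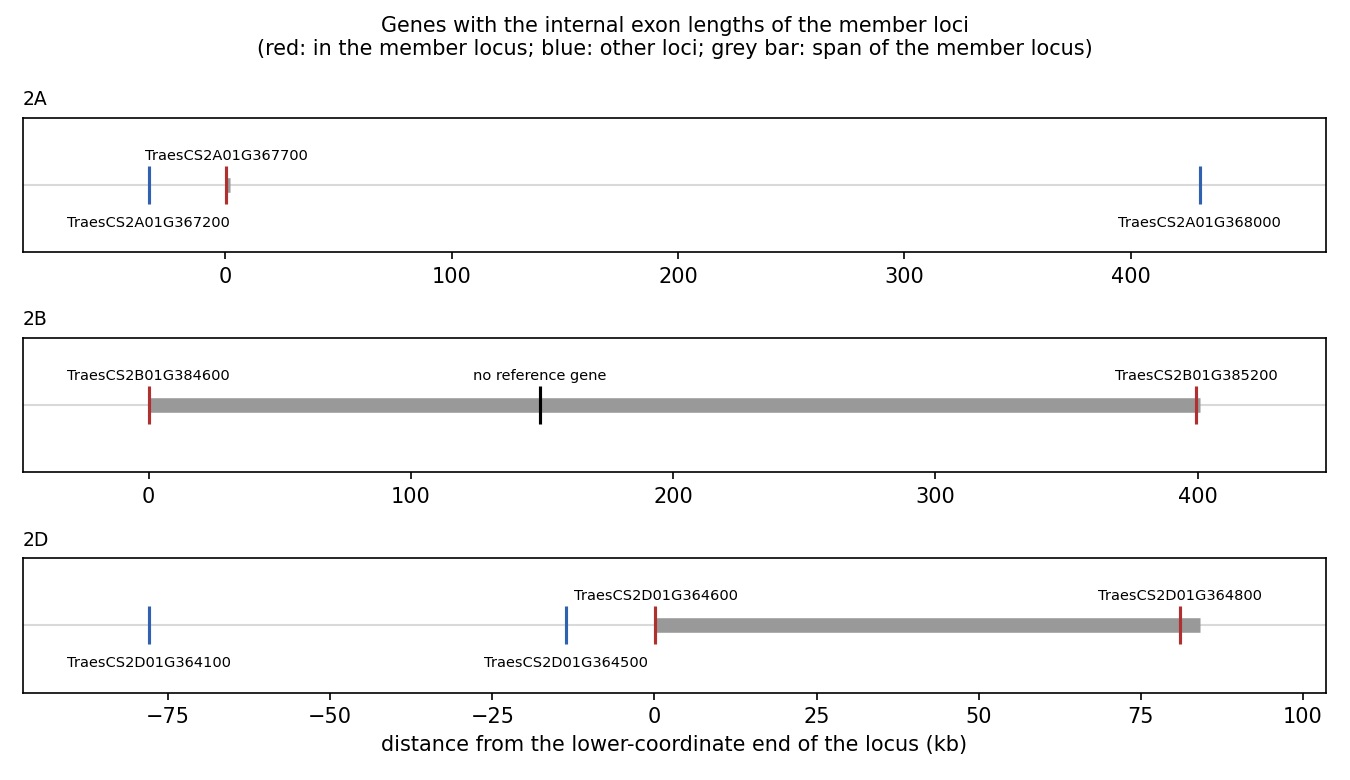
Position of genes with the members' internal exon lengths around each locus on 2A, 2B and 2D, as distance in kb from the lower-coordinate end of the locus (each panel has its own scale). Red marks are reference genes inside the member locus, blue marks are other loci, the black mark is the 2B copy with no reference gene, and the grey bar is the span of the locus. The 2A locus held 1 gene, while 2B and 2D each chained several, and genes with this structure farther away on these chromosomes are not drawn.

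The libraries gave FPKM, fragments scaled by transcript length and by the mapped fragments of the library. Levels of different copies were set side by side on this scale. The confidence bounds in the files implied a depth of 6.92 to 9.49 M fragments per library, and 5 fragments behind the FPKM of 1.45 for 2A in TAM111 HD dry replicate 1. They also implied 12.6 fragments behind the 11.3 FPKM of 2A in TAM111 HD dry replicate 2. Behind its 13.5 FPKM in TAM112 HD dry replicate 1 they implied 52.8. Fragments per FPKM thus differed between entries of the same gene, and the reason was not tested. Levels, replicate gaps and differences between copies are uncertain to that extent. These numbers are implied, not counted. The depth they give is below the read totals that the study states, the reason was not tested, and fragment numbers given here are uncertain to that extent. Replicates of a group correlated across loci at r between 0.83 and 0.86. The study names 2 loci as chlorophyll a-b binding proteins of light-harvesting complex II. Both were above 0 in all 15 libraries, with medians of 27.3 and 12.1 FPKM. They ranged from 0.54 to 136.9 FPKM and from 0.67 to 51.4 FPKM, so each was low in at least 1 library. The reason for this spread was not tested. In 2 TAM111 libraries, replicate 1 of HD dry and replicate 1 of GF wet, 39.1% and 49.5% of loci seen in TAM112 alone at the other stage were present, against 5.80% to 21.5% in the other 5 TAM111 libraries. Results that changed without these 2 libraries are given with both values. The study's methods describe replicates as separate sets of pots, and more of them than are analysed here. The labels do not tie a library to its pots, so p-values measure the spread between these pooled samples.

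The 2A copy was high in dry leaves at grain filling and low elsewhere. TAM112 GF dry libraries had 151.6 and 49.1 FPKM, against 11.2 and 5.16 FPKM in TAM112 GF wet libraries. TAM111 GF dry libraries had 74.9 and 21.9 FPKM, against 5.93 and 5.56 FPKM in TAM111 GF wet libraries. The 2 dry replicates lay far apart in both cultivars at this stage. The dry–wet change of 2A passed in neither of them (limma, adjusted p = 0.062 in TAM112 and 0.18 in TAM111). At heading, TAM112 dry libraries had 13.5 and 4.13 FPKM and wet libraries 4.66 and 2.48 FPKM. TAM111 HD dry libraries had 1.45 and 11.3 FPKM, against 2.27 FPKM in the single wet library. At heading the dry and wet libraries of 2A therefore overlapped in both cultivars.

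The 2B locus was listed at 0 or below 1 FPKM in wet leaves, where no library had an entry over the unannotated copy. TAM112 GF dry libraries had 76.2 and 21.9 FPKM, against 0 and 0.957 FPKM in TAM112 GF wet libraries. TAM111 GF dry libraries had 28.3 and 11.9 FPKM, against 0 and 0.331 FPKM in TAM111 GF wet libraries. At heading, dry libraries had 8.88 and 0.821 FPKM in TAM112 and 2.48 and 5.37 FPKM in TAM111. All 3 wet libraries at heading were listed at 0, so no fold is given there. Every dry library lay above every wet library of its cultivar and stage, and 5 of the 7 wet libraries were listed at 0. The 2 wet values above 0 rested on fewer than 2 fragments each by their confidence bounds, and so did the lowest dry value, 0.821 FPKM in TAM112 HD dry replicate 2, on which the separation in TAM112 at heading depends.

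The 2D copy was present in every library, its lowest value being 2.57 FPKM. TAM112 GF dry libraries had 92.0 and 66.2 FPKM, against 15.5 and 10.7 FPKM in TAM112 GF wet libraries. TAM111 GF dry libraries had 57.4 and 38.7 FPKM, against 20.4 and 14.0 FPKM in TAM111 GF wet libraries. At heading the dry libraries had 29.9 and 16.7 FPKM in TAM112, against 2.92 and 2.57 FPKM in the wet ones. TAM111 HD dry libraries had 18.4 and 23.3 FPKM, against 6.17 FPKM in the wet library. Dry libraries lay above wet libraries in both cultivars at both stages. Of the tested loci, 3.56% had every dry library above every wet library in all 4 combinations of cultivar and stage, and 2B and 2D were among them while 2A was not.

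**Figure D2:**
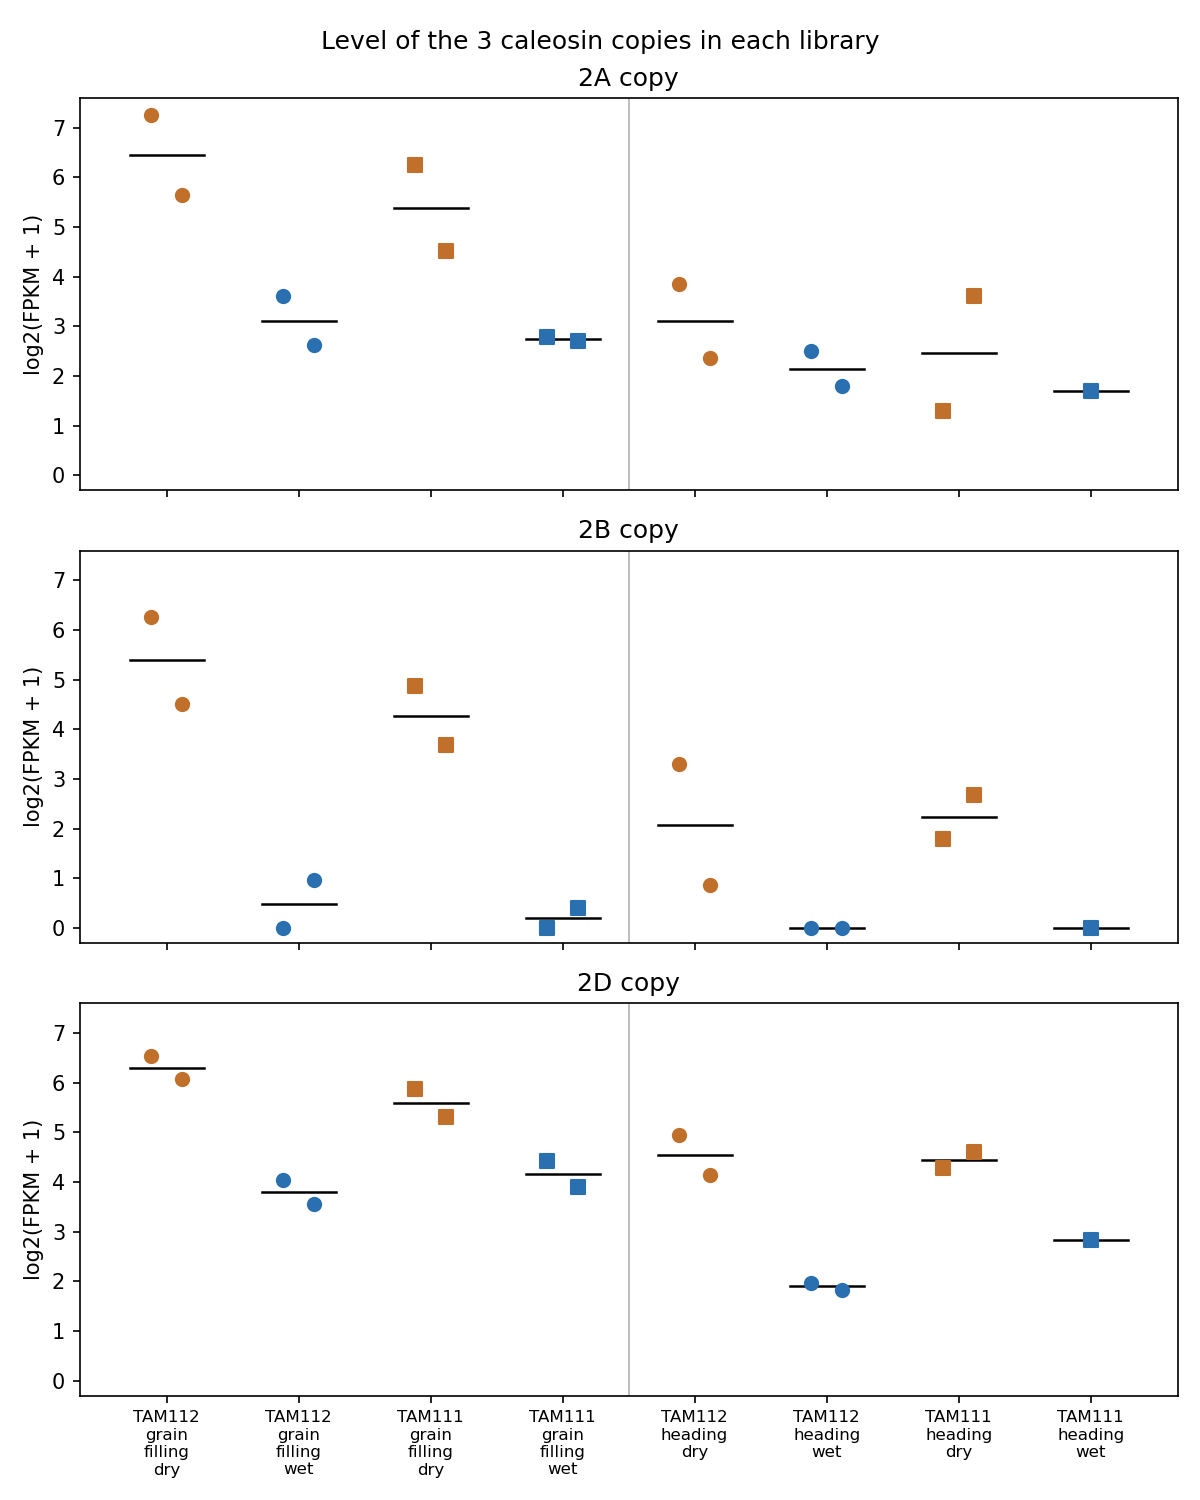
Level of the 2A, 2B and 2D copies, as log2(FPKM + 1), in each of the 15 libraries (orange dry, blue wet; circles TAM112, squares TAM111; black lines are group means). Dry libraries at grain filling are the highest in each panel, and the 2B copy lies between 0 and 0.957 FPKM in all 7 wet libraries.

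Averaged over the 4 combinations of cultivar and stage, all 3 copies rose under the dry treatment. The change on the log2(FPKM + 1) scale was 3.33 ± 0.44 (SE) for 2B, 2.04 ± 0.19 for 2D and 1.92 ± 0.48 for 2A. Because 2B was listed at 0 in most wet libraries, its fitted change depends on the constant of 1 added before the logarithm. The adjusted p values, from limma with Benjamini-Hochberg adjustment over all tested loci, were 0.0020, 0.00032 and 0.035 for these copies. Calls needed both an adjusted p under 0.05 and a 2-fold change or more. Of the tested loci, 2.67% were called upward, 1.78% downward and 4.44% in either direction in this average contrast. The 2A call was lost in 9 of the 14 fits that each left out 1 library and still gave this contrast, with adjusted p up to 0.079, and the 2B and 2D calls were kept in all 14. Leaving out TAM111 HD dry replicate 1 and TAM111 GF wet replicate 1 together kept all 3 calls, with changes of 3.38 for 2B, 2.15 for 2D and 2.22 for 2A.

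In single combinations the copies were called at different places. In TAM112 at grain filling, 4.1% of tested loci were called upward, and both 2B (4.91 ± 0.83, adjusted p = 0.011) and 2D (2.51 ± 0.35, adjusted p = 0.0049) rose in the limma fit. The 2B call was lost without GF dry replicate 1 or GF wet replicate 1 (adjusted p up to 0.077), with a constant of 0.01 (0.061) and with the 4 libraries of the contrast alone (0.16), and the 2D call with those 4 libraries alone (0.11). On the FPKM scale the 2D group means were 79.1 ± 18.2 in dry and 13.1 ± 3.4 in wet leaves (SD, n = 2 each), a 6.03-fold ratio. In TAM111 at grain filling, 1.69% of tested loci were called upward and 2B rose by 4.07 ± 0.83 (limma, adjusted p = 0.035). The 2A and 2D changes there were 2.63 and 1.42 and did not pass (limma, adjusted p = 0.18 and 0.068). The change was not tested between copies in this combination. This call was lost without the 2 TAM111 libraries that stood apart (3.87, adjusted p = 0.22), and in 8 of the 15 fits that left out 1 library. In TAM112 at heading, 0.308% of tested loci were called upward and 2D rose by 2.65 ± 0.35 (limma, adjusted p = 0.014), a call lost in 3 of the 15 fits that left out 1 library (adjusted p up to 0.078) and with the 4 libraries of the contrast alone (0.25). In TAM111 at heading, 0.0652% of tested loci were called upward and none of the 3 copies was by limma, with 1 of them, 2D, at an unadjusted p under 0.05 (a change of 1.60). The 2A copy, whose group means at grain filling were 12.3-fold higher in dry than in wet leaves of TAM112 and 8.43-fold higher in TAM111, passed in no single combination (limma, adjusted p = 0.062 and 0.18 at grain filling).

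The 2D calls depended on how the FPKM entries of the locus were read. With the entry of largest overlap alone, in place of the sum over entries, its average change was 1.08 (limma, adjusted p = 0.16) and its change in TAM112 at grain filling was 0.091. The 2 reference genes of the 2D locus have separate entries in some libraries and a joint entry in others, so that setting compared unlike stretches. It also took the lower of 2 entries over TraesCS2D01G364800 in some libraries. That was 2.71 and not 39.6 FPKM in TAM112 GF dry replicate 2, and 2.30 and not 24.9 FPKM in TAM112 HD dry replicate 1. In the other libraries with 2 such entries it took the higher. The part of each in these changes was not tested.

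**Figure D3:**
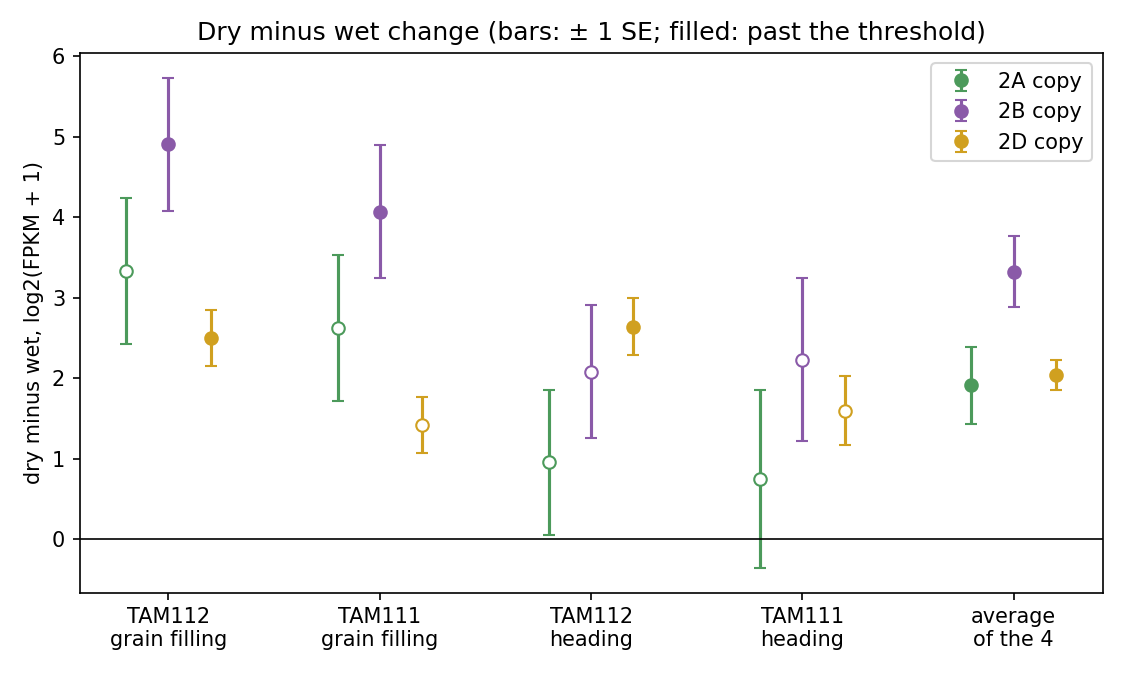
Dry minus wet change of each copy in log2(FPKM + 1), by cultivar and stage and as the average of the 4 (points are limma estimates, bars ± 1 SE, filled points passed an adjusted p below 0.05 with at least a 2-fold change). All 3 averages are filled, 2B is filled at grain filling in both cultivars, 2D in TAM112 at both stages, and 2A in no single combination.

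Level also differed between stages. Averaged over cultivar and treatment, 2A rose by 2.07 ± 0.48 and 2D by 1.53 ± 0.19 at grain filling relative to heading on the log2 scale (limma, adjusted p = 0.038 and 0.0040), where 1.24% of tested loci were called upward. The 2A stage call was lost in 9 of the 14 fits that left out 1 library (adjusted p up to 0.083) and with no filter on low values (adjusted p = 0.054), and the 2D call was kept in all 14. The 2B average was 1.51 ± 0.44 and did not pass (limma, adjusted p = 0.077). The 2D stage change passed by itself in TAM112 dry leaves and in no other combination. Its group means in TAM112 were 79.1 and 23.3 FPKM at grain filling and heading under the dry treatment (3.39-fold) and 13.1 and 2.74 FPKM under the wet treatment (4.78-fold). In TAM112 dry leaves this change was 1.76 ± 0.35 and passed (limma, adjusted p = 0.035, 1.97% of tested loci called upward), and in TAM112 wet leaves it was 1.90 ± 0.35 and did not (limma, adjusted p = 0.10, 0.104% called upward). In TAM111 it was 1.15 ± 0.35 in dry and 1.32 ± 0.43 in wet leaves, neither passing (limma, adjusted p = 0.17 and 0.50). For 2A the group means were 11.4-fold higher at grain filling than at heading in TAM112 dry leaves and 2.29-fold higher in wet leaves, and neither change passed by itself. Without the 2 TAM111 libraries that stood apart, the 2A average was 1.77 (limma, adjusted p = 0.12), the 2D average 1.43 (adjusted p = 0.029) and the 2D change in TAM112 dry leaves 1.76 (adjusted p = 0.077), the last of which was also lost in 8 of the 15 fits that left out 1 library.

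The stage and the water treatment were also tested together. The dry–wet change was larger at grain filling than at heading by 2.38 ± 1.28 for 2A and 2.82 ± 1.17 for 2B in TAM112, and by 1.88 ± 1.43 and 1.84 ± 1.31 in TAM111, on the log2 scale. For 2D the same differences were -0.14 ± 0.49 in TAM112 and -0.17 ± 0.55 in TAM111. None of the 12 interactions fitted for the 3 copies passed the limma test, the lowest adjusted p being 0.44 and the lowest unadjusted p 0.039 (2B in TAM112), and 0.153%, 0.185%, 0.196% and 0.232% of tested loci passed in the 4 interaction contrasts.

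The cultivars were not told apart in any of these copies. The average TAM112 minus TAM111 difference was 0.63 for 2A (95% interval -0.45 to 1.71), 0.31 for 2B (-0.68 to 1.30) and -0.12 for 2D (-0.54 to 0.30), where 2.89% of tested loci were called in either direction. No single stage and treatment passed either, where 1.7% (GF dry), 0.788% (GF wet), 0.627% (HD dry) and 0.827% (HD wet) of tested loci were called. The 2D difference in dry leaves at grain filling was 0.72 ± 0.35 and did not pass (limma, adjusted p = 0.47). The 2D libraries there had 92.0 and 66.2 FPKM in TAM112 and 57.4 and 38.7 FPKM in TAM111. In wet leaves at heading they lay the other way, with 2.92 and 2.57 FPKM in TAM112 and 6.17 FPKM in the single TAM111 library (-0.94 ± 0.43, adjusted p = 0.59). The dry–wet change of 2D was larger in TAM112 than in TAM111 by 1.08 ± 0.49 at grain filling (95% interval -0.03 to 2.19) and by 1.05 ± 0.55 at heading (-0.20 to 2.29), and neither difference passed (limma, adjusted p = 0.80 and 0.99).

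Set against each other within a library, the copies kept an order in most samples. The 2D copy was above 2B in 15 of 15 libraries, by 2.33 ± 1.14 on the log2(FPKM + 1) scale (SD, n = 15, two-sided exact sign-flip permutation p = 6.1e-05, the smallest it can give). The 2B copy was above 2A in 1 of 15 libraries (TAM111 HD dry replicate 1), with a mean difference of -1.54 ± 0.999 (exact permutation p = 0.00012). The 2D copy was above 2A in 12 of 15, by 0.79 ± 0.97 (exact permutation p = 0.0063), where the 2D value sums 2 reference genes and the 2A value is 1 gene. Adjusted over these 3 comparisons the exact permutation p values were 0.00018, 0.00018 and 0.0063. Only 5 libraries had an entry over the unannotated 2B copy, and elsewhere it added nothing to 2B in both comparisons with that locus. Against 2B, too, the 2D value sums 2 reference genes. The 3 libraries with 2A above 2D were replicate 1 of TAM112 GF dry, replicate 1 of TAM111 GF dry and replicate 1 of TAM112 HD wet. With the entry of largest overlap alone, 2D and 2A were not told apart (-0.070, adjusted exact permutation p = 0.88).

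The 2B share of the summed caleosin FPKM was larger at the median in dry than in wet libraries, with overlapping ranges. Shares were not tested, and no wet library had an entry over the unannotated 2B copy. The 2B share was 3.78% to 23.8% in the 8 dry libraries (median 16.2%), and 0% to 5.68% in the 7 wet libraries (median 0%). The 2D share had medians of 55.3% in dry and 63.7% in wet libraries, and the 2A share 29.2% and 30.6%. The sum of the 3 copies was 319.7 and 137.2 FPKM in TAM112 GF dry libraries, against 26.7 and 16.8 FPKM in TAM112 GF wet libraries. It was 160.5 and 72.4 FPKM in TAM111 GF dry libraries, against 26.3 and 19.9 FPKM in TAM111 GF wet libraries.

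Differences between copies in log2(FPKM + 1), and not their shares, were tested between treatments by the mean over the 4 strata of cultivar and stage. The 2B minus 2A difference was -0.85 in dry and -2.26 in wet leaves, a change of 1.41 with the same sign in 4 of 4 strata (two-sided exact permutation within strata, 648 arrangements, p = 0.0046, adjusted over 9 comparisons 0.042). The 2D minus 2B difference was 1.72 in dry and 3.0 in wet leaves, a change of -1.28 that did not pass (exact permutation p = 0.035, adjusted 0.16). The 2D minus 2A difference was 0.87 in dry and 0.75 in wet leaves (adjusted exact permutation p = 0.93). None of the 3 stage and 3 cultivar comparisons passed, the lowest adjusted exact permutation p being 0.19 for the cultivar difference of 2D minus 2A. The 2B minus 2A call was lost in 9 of the 15 runs that left out 1 library (adjusted p up to 0.14) and with the entry of largest overlap alone (0.90, adjusted exact permutation p = 0.31). It did not pass with a replicate block either, where the change was 1.5. Values of 0 for 2B in wet leaves make the size of this change depend on the constant added before the logarithm: it was 3.82 with 0.1 in place of 1.

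**Figure D4:**
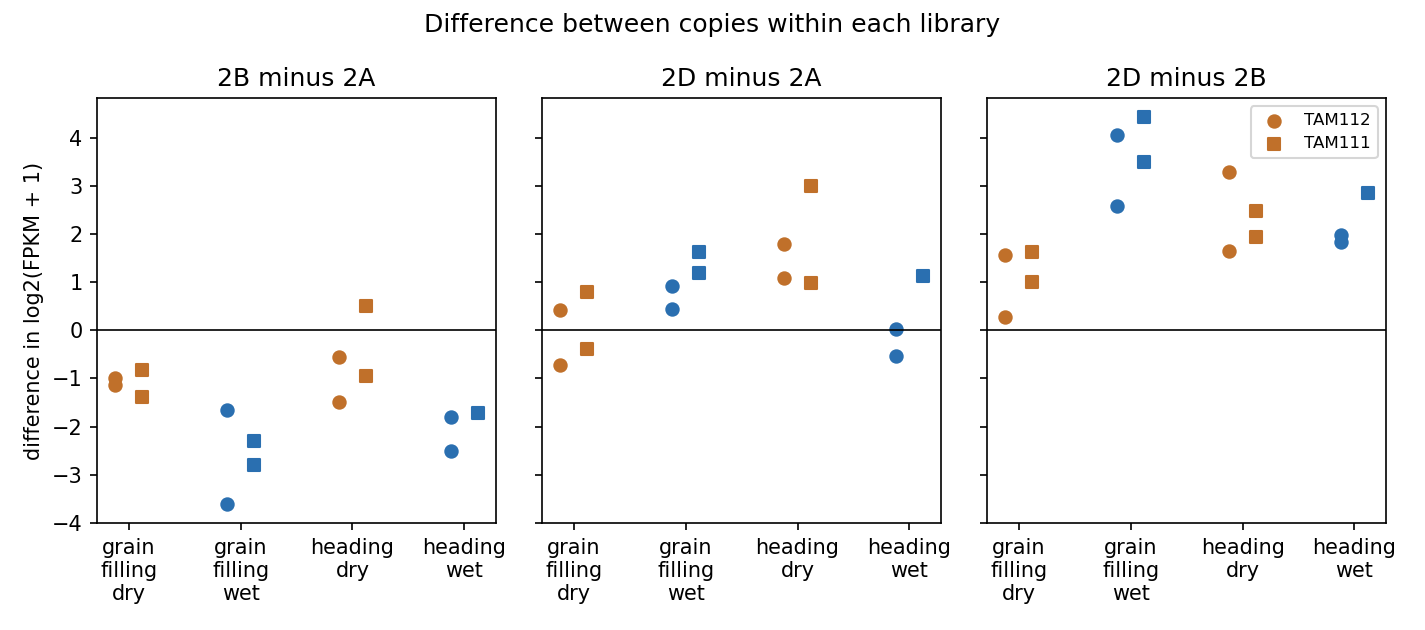
Difference between copies within each library in log2(FPKM + 1), by stage and treatment (orange dry, blue wet; circles TAM112, squares TAM111). The 2B minus 2A points are lower in wet than in dry leaves, with means over strata of -0.85 in dry and -2.26 in wet leaves, and all 15 of the 2D minus 2B points are above 0.

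Inside the 2D locus, the reference genes TraesCS2D01G364600 and TraesCS2D01G364800 had entries of their own in 11 libraries, and in the other 4 an entry ran across both. Where they could be read apart, TraesCS2D01G364800 held most of the signal at heading. It had 27.2 and 14.6 FPKM in TAM112 HD dry libraries, against 2.35 and 2.0 FPKM in TAM112 HD wet libraries. TraesCS2D01G364600 had 2.63 and 2.16 FPKM in these TAM112 HD dry libraries, against 0.561 and 0.569 FPKM in the wet ones. In TAM111 at heading TraesCS2D01G364800 had 16.0 and 21.8 FPKM in dry libraries, against 6.17 FPKM in the wet library, while TraesCS2D01G364600 had 2.45 and 1.52 FPKM in dry libraries and was listed at 0 in the wet one.

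At grain filling TraesCS2D01G364600 took a larger part in TAM112. It had 60.2 and 23.9 FPKM in the TAM112 GF dry libraries, beside 31.8 and 42.3 FPKM for TraesCS2D01G364800. In the 1 TAM112 GF wet library that separated them, it had 8.52 FPKM, beside 7.0 FPKM for TraesCS2D01G364800. In the 1 such TAM111 library, GF wet replicate 2, it had 2.20 FPKM, beside 11.8 FPKM. Its share of the sum was therefore 15.7% to 65.4% in the 4 separable grain filling libraries (median 45.5%) and 0% to 22.1% in the 7 heading libraries (median 12.9%), and the ranges overlapped. Taken singly, TraesCS2D01G364600 was below the 2A copy in 10 of the 11 separable libraries and TraesCS2D01G364800 was above it in 6. In some libraries the TraesCS2D01G364800 value sums 2 overlapping entries, and the shares depend on that sum. These entries were 19.9 and 11.9 FPKM in TAM112 GF dry replicate 1, and 39.6 and 2.71 FPKM in replicate 2. The splits between the 2 genes were read after the values were seen and were not tested. Both dry libraries of TAM111 at grain filling had only the joint entry, so the 2 genes cannot be told apart there.

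**Figure D5:**
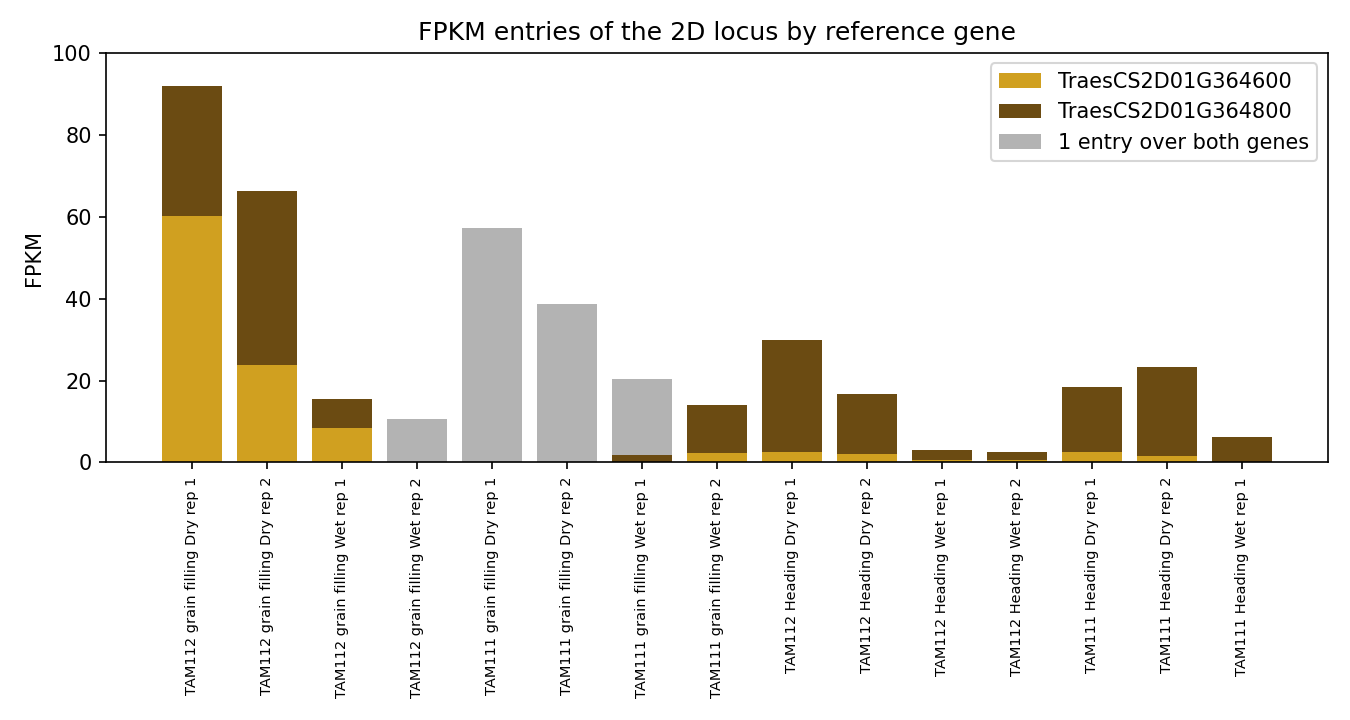
FPKM of the entries of the 2D locus in each library, split by the reference gene they cover (gold TraesCS2D01G364600, brown TraesCS2D01G364800, grey a single entry over both genes). TraesCS2D01G364600 reaches 60.2 FPKM in TAM112 GF dry replicate 1 and stays at 2.63 FPKM or below in all heading libraries.

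Inside the 2B locus, TraesCS2B01G384600 was listed at 0 wherever it had an entry of its own. An entry over the unannotated copy was present in 5 libraries, all of them dry: the 4 GF dry libraries and TAM112 HD dry replicate 1. In TAM112 GF dry replicate 1 that copy stood alone, with 69.7 FPKM, beside 6.50 FPKM for TraesCS2B01G385200. In the other 4 the entry ran on into TraesCS2B01G385200. The entry of TAM112 GF dry replicate 2 also covered TraesCS2B01G384600, which has no value of its own there. The other 10 libraries had entries over the reference genes only, with 0 to 5.37 FPKM over TraesCS2B01G385200. A library with no entry over the unannotated copy gives no value for it, and the part of this in the dry–wet change of 2B was not tested. In the 2A locus every library had exactly 1 entry, over TraesCS2A01G367700.

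Among the 5 tested loci on each side of each copy, 30 in all, 1 was called in the average dry–wet contrast (3.33%), a share near the 4.44% of all tested loci called in either direction. That locus was TraesCS2A01G366000 (XLOC_018930), which rose by 1.07 (limma, adjusted p = 0.020). The median change of the 10 neighbours was 0.24 for 2A, 0.04 for 2B and 0.11 for 2D, and that of all tested loci was 0.08.

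Likeness of pattern was measured as Pearson's r of log2(FPKM + 1) over the 15 libraries. The loci named here were picked as the highest among all tested loci, so their standing above the other copies is no result about the copies. Whether the copies are homoeologues of one another was not tested, and the 2D value sums 2 reference genes. The 2A copy was most like TraesCS3B01G337400 (r = 0.97), TraesCS7A01G314900 (r = 0.97) and TraesCS7D01G096600 (r = 0.97). The 2B copy was most like TraesCS7D01G199900 (r = 0.98), TraesCS7D01G306300 (r = 0.97) and TraesCS5B01G451200 (r = 0.97), which the study names an OTU domain-containing protein. The 2D copy was most like TraesCS7A01G141300 (r = 0.95), TraesCS2D01G372000 (r = 0.95) and TraesCS2D01G248700 (r = 0.94). Between copies r was 0.884 for 2A and 2B, 0.872 for 2B and 2D and 0.833 for 2A and 2D. In the order of all 49090 tested loci, 2B stood at place 521 and 2D at place 1255 for 2A. For 2B, 2A stood at place 534 and 2D at place 654. For 2D, 2B stood at place 162 and 2A at place 481. These values describe 15 libraries that share the same treatments and stages.

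Other genes of the drought response, listed in the study's tables by product name and chosen there on these samples, give the setting in which the copies moved. Their counts are not independent evidence of direction. In the average dry–wet contrast, 2.67% of all tested loci were called upward and 1.78% downward. Of 53 tested water-deficit loci that the study listed as up (the caleosins left out), 40 rose and 0 fell in the average dry–wet contrast (limma), with a median of 1.73, against 0.08 over all tested loci. Of these 53 loci, 10 had a larger average change than 2B, 16 a larger one than 2D and 21 a larger one than 2A. Among them, the largest changes were those of 2 loci for delta-1-pyrroline-5-carboxylate synthase 2, an enzyme of proline synthesis, XLOC_049806 (4.90) and XLOC_044951 (4.66), and the smallest was 0.16, for the phenylalanine ammonia-lyase-like locus XLOC_018999. Of the 31 loci listed as down, 14 fell and 0 rose, with a median of -1.05. The ends of that list were the wall-associated receptor kinase 2 locus XLOC_074394, which fell by 2.50, and an ABA-inducible protein kinase locus XLOC_121238 at 1.02 and a REF/SRPP-like locus XLOC_112821 at 3.73, neither of which passed (limma, adjusted p = 0.47 and 0.18).

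Protective proteins showed the same direction. In this contrast 2.67% of all tested loci were called upward and 1.78% downward. Of 11 tested dehydrins, hydrophilic proteins that build up in drying cells, 10 rose and 0 fell, with a median of 3.57. XLOC_100238 (dehydrin 7) rose by 4.57 and XLOC_094800 (dehydrin 3) by 4.38, and XLOC_085852 (dehydrin Rab15-like) was at 0.73 without passing. Of 13 late embryogenesis abundant proteins, 11 rose and 0 fell (median 1.79), with XLOC_088388 at 2.89 and XLOC_003533 at 2.21, and XLOC_102877 at 0.71 without passing. Of 6 loci for the proline enzyme 4 rose (median 2.65), and the lowest, XLOC_013803, was at 0.79.

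Genes nearer to ABA and lipids were mixed. Of 20 tested ABA loci, 11 rose and 3 fell (median 1.56), beside the same 2.67% upward and 1.78% downward over all tested loci. Protein phosphatases 2C, which hold back ABA signalling, were the largest, with XLOC_030704 at 2.98 and XLOC_039630 at 2.88, while the ABA-inducible protein kinase locus XLOC_022126 fell by 1.61. Of 5 lipid loci, 2 rose and 0 fell (median 1.11). The largest lipid change was that of the REF/SRPP-like locus XLOC_112821 named above, at 3.73 without passing (limma, adjusted p = 0.18). The next was XLOC_065613, a 9S-lipoxygenase that makes fatty acid hydroperoxides, which rose by 1.47. The lowest, XLOC_114202, lipoxygenase 8, was at -0.96, below the 2-fold limit. Of 6 aquaporins, the water channels of membranes, 4 fell and 0 rose (median -1.05), from XLOC_069802 at -0.32 and XLOC_096323 at -0.89, neither called, to XLOC_077485 at -1.58.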

How the data were processed

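The authors trimmed reads with Trimmomatic 0.38, aligned them with TopHat2 to IWGSC RefSeq v1.0, and assembled and quantified each library with Cufflinks. The deposited FPKM values, 1 file per library with confidence bounds, are normalized to mapped fragments and transcript length by the authors, and a merged catalogue gives the loci. Entries were assigned to catalogue loci by reference name where entry and locus overlapped and otherwise by best overlap of their spans, and FPKM was summed per locus. Libraries held 117209 to 119792 entries, and 2.49% to 27.9% of FPKM fell on no locus. Loci that lost their only overlapping entry in some library to another locus (1742, 1014 of them above the filter) were left out.

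Loci reaching an FPKM of 1 in 2 or more libraries were fitted as log2(FPKM + 1) to 8 group means with limma 3.58.1 in R 4.3.3 (mean-variance trend, 7 residual degrees of freedom). This scale understates changes of low genes. Fragments behind a value were taken from its bounds, which implied whole numbers (within 0.05) for about 80% of low values, a reading and not a direct check. Copies were compared within libraries by exact permutation in Python. The fits were tested on simulated data. Levels in pooled leaf tissue cannot be split into fewer expressing cells and less RNA per cell.

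The copies, gene lists and tests were chosen with earlier results of these data known. Named loci were the 3 most like each copy, called neighbours among 5 on each side, and from each list the 2 largest and the smallest change, with any others chosen after their values were seen. Alternatives were other constants, scalings, filters, entry rules, single libraries left out, and a replicate block. Genome sequence was not used here, and 0 of 5 reference gene names of the copies matched the gene table at hand. The fold changes and p-values of the authors' Cuffdiff comparisons were not used here, but the gene lists follow the study's listing of loci as up or down, made on these samples.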

Additional observations from a re-analysis of the deposited data

How the results depend on the processing

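The average dry–wet rise of 2B (3.02 to 3.63) and of 2D (1.94 to 2.14), the 2D changes in TAM112 at grain filling (2.26 to 2.75) and in the average between stages (1.43 to 1.63), and the 3 level differences between copies kept their direction and call whichever library was left out. Of the 462 values under the 10 other settings, 421 kept their direction and side of the threshold, as did 761 of 835 with 1 library left out. Both counts include results that did not pass in the fit reported and stayed so. They are therefore no measure of how firm the calls were. The 12 interactions gave 0 calls under any setting. The cause of the changes below was not tested except where stated. The few fragments that the bounds imply limit 2B in wet leaves, and 1 library in TAM111 HD wet limits every contrast that uses it. The alternative with reference-named entries alone was not run, since such entries were above 0 in 7 libraries for 2A, 0 for 2B and 1 for 2D.

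With a constant of 0.1, 3311 loci were called in the average dry–wet contrast (2182 in the fit reported), the dry–wet change of 2D minus 2B was -3.69 and passed, and its stage change was -0.57, reversed. With 0.01, 2B was at 8.30 (TAM111 GF) and 8.70 (TAM112 GF) and 2A at 2.07 on average, none passing, and the 2B stage interaction in TAM111 reversed to -0.22. With no filter, 726 loci were called in TAM111 HD (239 reported), and 2B in TAM111 GF (4.07), the 2A dry–wet average (1.92) and the 2A stage average (2.07) no longer passed.

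With the entry of largest overlap alone, 2D no longer passed in TAM112 HD (1.11), TAM112 GF (0.091), the dry–wet average (1.08) or the stage average (1.11), while the 2B stage average passed (1.99). Reversed values were 2D between cultivars at HD dry (-1.44) and GF dry (-2.45), its cultivar interactions at HD (-0.44) and GF (-1.51) and its stage interaction in TAM111 (0.059), the level of 2D minus 2A (-0.070), the cultivar change of 2B minus 2A (0.044), the dry–wet change of 2D minus 2A (-0.83) and the stage change of 2D minus 2B (-0.88). The dry–wet change of 2B minus 2A was 0.90 and did not pass, and the cultivar changes of 2D minus 2A (-2.09) and 2D minus 2B (-2.13) passed.

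The reported fits did not pair samples by replicate number. Same-numbered deviations correlated at -0.033 to 0.087 over all tested loci, which cannot show whether the numbers pair the samples at single loci. For 2A and 2D, replicate 1 lay above replicate 2 in every group with 2 libraries except TAM111 HD dry, and this was not tested. With a replicate block, 128 loci were called in TAM111 HD, 2D in TAM111 GF passed (1.42, limma, adjusted p = 0.038), the dry–wet change of 2B minus 2A was 1.5 without passing, and the stage change of 2D minus 2B was -0.071, reversed. With the libraries of each contrast alone, so with fewer samples behind the spread, 655, 27, 0 and 0 loci were called in TAM111 HD, TAM112 HD, TAM111 GF and TAM112 GF (limma), with 7711 and 8066 at an unadjusted p under 0.05 in the last 2, and 2D in TAM112 HD (2.65), 2D in TAM112 GF (2.51), 2B in TAM112 GF (4.91) and 2B in TAM111 GF (4.07) did not pass. Without the 2 TAM111 libraries that stood apart, a setting chosen after seeing the data, 465 loci were called in TAM111 HD, 726 in TAM111 GF (1382 reported), 560 between stages in TAM112 dry leaves (1540) and 538 in the stage average (1202), 2B in TAM111 GF (3.87) and the 2A stage average (1.77) no longer passed, and 2D between cultivars at HD dry (-0.056), the dry–wet change of 2D minus 2A (-0.070) and the stage change of 2D minus 2B (-0.028) reversed.

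Leaving out 1 library gave these ranges where a call or direction changed. For 2A they were -0.41 to 1.91 in TAM111 HD, reversed without HD dry replicate 2, 2.53 to 4.14 in TAM112 GF, 1.63 to 2.21 in the dry–wet average and 1.78 to 2.36 in the stage average. For 2B they were 3.48 to 4.66 in TAM111 GF, 4.03 to 5.79 in TAM112 GF (lost without GF dry replicate 1 or GF wet replicate 1), 1.21 to 1.82 in the stage average and 2.09 to 4.53 between stages in TAM112 dry leaves. For 2D they were 2.25 to 3.05 in TAM112 HD (lost without dry replicate 1 or either wet library), 1.36 to 2.16 between stages in TAM112 dry leaves, -0.29 to 0.51 between cultivars at HD dry, and -0.45 to 0.10 and -0.54 to 0.26 for the stage interactions in TAM111 and TAM112. Between copies, dry–wet changes were 1.16 to 1.65 for 2B minus 2A, -0.12 to 0.38 for 2D minus 2A and -1.5 to -1.08 for 2D minus 2B, and the stage change of 2D minus 2B was -0.35 to 0.22. Counts of called loci were 151 to 403 in TAM111 HD, 182 to 366 in TAM112 HD, 648 to 1382 in TAM111 GF, 1144 to 2914 in TAM112 GF, 350 to 2241 between stages in TAM112 dry leaves and 821 to 1552 in the stage average.

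Quantile normalization moved the share of called loci that were higher to 48.5% in TAM111 GF (60.1% unscaled), 53.5% in TAM112 GF (69.1%), 48.5% in the dry–wet average (60.0%) and 65.9% between stages in TAM111 dry leaves (77.5%). Median-ratio scaling moved the median dry–wet change of all loci in TAM111 GF to 0, from 0.10 unscaled.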
